A study of Mus musculus with 12 samples.

Results

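The receptors described here are 9 genes of the TNF receptor superfamily that T cells carry: the costimulatory receptors Tnfrsf4 (OX40), Tnfrsf9 (CD137), Tnfrsf18 (GITR), Cd27 and Tnfrsf25 (DR3), the TNF receptors Tnfrsf1a and Tnfrsf1b, and the death receptors Tnfrsf10b (the mouse TRAIL receptor) and Fas. They were chosen by gene symbol, 9 of 9566 genes with a detected probe. The arrays held 26 probes annotated to them alone, of 45281 probes in all. Of these, 19 were detected on at least 3 of the 12 arrays and were tested, and every gene had at least 1 of them. RNA was measured on Illumina bead arrays in lymph node CD4 T cells from BALB/c hosts. The hosts had received naive DO11.10 CD4 T cells, whose transgenic receptor recognises an ovalbumin peptide, labelled with the division dye CFSE, and had been immunized with that peptide in complete Freund's adjuvant. At 66 to 72 h the donor cells were sorted by their remaining dye into 4 groups of 3 arrays, 1 from each of 3 independent experiments: D3, D4, D6 and D8, described as cells divided 2, 3, 5 and 7 times. All 4 groups share donor line, host and immunization. The labels give neither the number of pooled mice nor a gate on the transgenic receptor. Per the design text, D4 cells readily became memory cells and the other 3 divisions did so less, which is the question behind the comparisons.

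Receptors of this family bind trimeric ligands of the TNF superfamily and have no enzyme of their own. Costimulatory members recruit TRAF adaptor proteins and start NF-kB signalling, which favours survival and cytokine production. Members with a death domain, such as Fas, can instead assemble FADD with caspases and start apoptosis. In T cells OX40, CD137 and GITR are induced by activation, CD27 is already present on naive cells, and regulatory T cells carry GITR and OX40 without new activation.

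The sequences below are promoters from RefSeq (build GRCm38.p6, plus strand), each with 250 bases before and 50 after a start site. They are shown for Tnfrsf9, Tnfrsf18 and Fas, the genes with more than 1 detected probe of which all differed between D8 and D3. Of the 9 genes, 8 matched an entry of that table. Capitals mark matches, on either strand, to a kB motif (GGGNNNNNCC) or an AP-1 motif (TGANTCA), the binding motifs of NF-kB and AP-1. Matches of 1 motif may overlap each other.
Tnfrsf9, first start (chr4:150919905-150920204): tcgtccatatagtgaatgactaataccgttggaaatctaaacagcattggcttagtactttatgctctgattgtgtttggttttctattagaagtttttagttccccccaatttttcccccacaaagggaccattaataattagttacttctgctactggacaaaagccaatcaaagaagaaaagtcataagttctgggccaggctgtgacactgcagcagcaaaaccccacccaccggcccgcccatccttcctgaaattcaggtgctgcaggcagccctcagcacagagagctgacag
Tnfrsf9, second start (chr4:150927749-150928048): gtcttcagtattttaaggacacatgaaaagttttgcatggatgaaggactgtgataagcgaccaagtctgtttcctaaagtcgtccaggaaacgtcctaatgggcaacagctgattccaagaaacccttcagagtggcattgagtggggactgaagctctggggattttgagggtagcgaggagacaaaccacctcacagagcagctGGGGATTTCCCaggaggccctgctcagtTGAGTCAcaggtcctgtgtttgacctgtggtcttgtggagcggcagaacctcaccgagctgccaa
Tnfrsf18 (chr4:156026072-156026371): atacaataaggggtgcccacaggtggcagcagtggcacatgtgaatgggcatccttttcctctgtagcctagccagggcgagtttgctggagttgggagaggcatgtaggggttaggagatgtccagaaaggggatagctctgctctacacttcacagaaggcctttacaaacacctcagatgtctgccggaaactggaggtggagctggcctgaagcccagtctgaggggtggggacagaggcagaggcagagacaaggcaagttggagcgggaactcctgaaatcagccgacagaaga
Fas (chr19:34290409-34290708): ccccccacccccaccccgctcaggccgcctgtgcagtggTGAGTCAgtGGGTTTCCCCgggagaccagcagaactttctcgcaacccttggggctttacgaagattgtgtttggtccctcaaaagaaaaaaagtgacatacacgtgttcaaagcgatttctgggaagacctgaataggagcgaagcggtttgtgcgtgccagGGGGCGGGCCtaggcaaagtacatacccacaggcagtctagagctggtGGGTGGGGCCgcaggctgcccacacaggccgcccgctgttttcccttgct

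Of all 32851 promoters of this length, 50.8% held the kB motif and 7.81% the AP-1 motif. The second Tnfrsf9 start had 2 kB matches, which overlapped, and 1 AP-1 match. The Fas promoter had 3 kB matches and 1 AP-1 match. The first Tnfrsf9 start and Tnfrsf18 had 0 of either. Of the 10 member promoters, these of Tnfrsf9 and Fas were the 2 with an AP-1 match. A match says only that the letters are in the window. In the gene order of that assembly Tnfrsf4 and Tnfrsf18 are direct neighbours on chromosome 4.

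Detected probes numbered between 15563 and 16666 per array, and arrays of the same division correlated at 0.9898 to 0.9929 over all tested probes. Levels below are log2 intensities after background correction and quantile normalization, and levels of different probes are not comparable. The labelled cell type was checked against its markers: Cd3e, which encodes a CD3 chain, averaged 13.07 in D8 and 13.25 in D3, and Cd4 averaged 8.22 in D8 and 8.13 in D3. Of 8 tested T cell markers 2 were called lower in D8: Cd3d at -0.35 (adjusted p 0.013) and Cd3g at -0.37 (adjusted p 0.0218). The brightest Lat probe gave -0.02 and was not called, while another gave -0.67 (adjusted p 0.018). The summed intensity of the T cell markers spanned 42900 to 43700 in D8 and 51700 to 53700 in D3. Cd8a was not detected on any array, while the brightest Cd8b1 probe averaged 11.30 in D8 and 11.67 in D3. That probe gave -0.36 and was not called. Other Cd8b1 probes gave 0.33 (adjusted p 0.0154) and -0.36 (adjusted p 0.05) in D8 minus D3. What the Cd8b1 probes measure was not settled.

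Apart from Pecam1, the markers of NK, B, myeloid, dendritic and stromal cells were low but not all absent. Ncr1, Pax5, Itgam, Itgax and Col1a1, which mark NK, B, myeloid, dendritic and stromal cells, were not detected on any array. Detected were Klrd1 of NK cells (12 arrays) and, of B cells, Cd79b (11 arrays), Cd22 (9 arrays) and Fcer2a (4 arrays). Also detected were Lyz2 (11 arrays) and Csf1r (3 arrays) of myeloid cells, and Zbtb46 (12 arrays) and Siglech (9 arrays) of dendritic cells. Of the stroma list Pecam1 alone was detected (12 arrays), and Col1a1, Col1a2, Pdpn and Cdh5 were not detected on any array. Which cells gave the Pecam1 signal was not tested. Cd22 averaged 6.29 in D8 and 4.57 in D3 and was called higher in D8, while Cd79b averaged 5.53 in D8 and 5.79 in D3 and was not called. Klrd1, which activated T cells can also carry, averaged 6.96 in D8 and 5.59 in D3 (1.37 ± 0.25, adjusted p 0.000768). Lyz2 averaged 6.46 in D8 and 5.68 in D3 (adjusted p 0.138), and it rose in the trend over divisions (adjusted p 0.0481). The brightest Pecam1 probe averaged 8.79 in D8 and 9.14 in D3 (adjusted p 0.129), and another was lower in D8, at -0.70 (adjusted p 0.000875). Summed marker intensity in D8 and in D3 spanned 90 to 164 and 34.5 to 47.1 for NK cells, 89.2 to 165 and 57.6 to 83.2 for B cells, and 73.2 to 129 and 46.9 to 85 for myeloid cells. The sums were 38.5 to 54.2 in D8 and 41.6 to 60.7 in D3 for dendritic cells, and 403 to 523 in D8 and 533 to 631 in D3 for stroma. Klrd1 was the 1 tested marker of 4 for NK cells and Pecam1 the 1 of 5 for stroma. Those sums mostly repeat these genes. The B cell sum rose with Cd22, while the Cd79b mean was lower in D8. The part of these cells in the receptor differences was not tested.

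**Figure D1:**
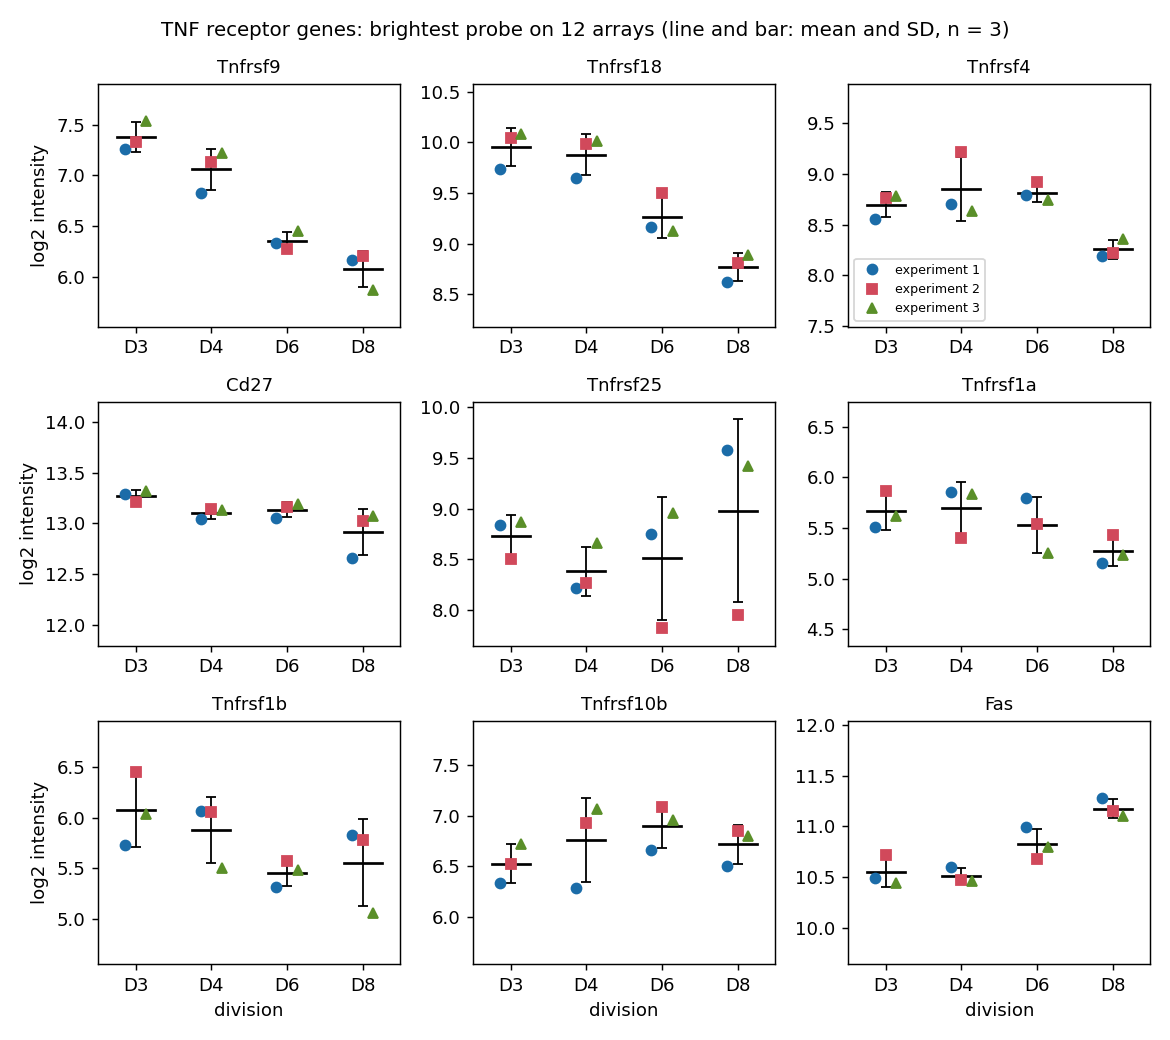
Log2 intensity of the brightest detected probe of each of the 9 genes (vertical axes, which all span the same number of log2 units) in D3, D4, D6 and D8. Points are the 3 experiments, and line and bar are mean and SD (n = 3). Tnfrsf9 and Tnfrsf18 descend and Fas ascends towards D8, and Tnfrsf25 is low in experiment 2 in D6 and D8.

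The widest contrast set D8 cells, the most divided, against D3 cells, the least divided. Tnfrsf9, Tnfrsf18, Tnfrsf4 and 1 of 3 probes of Cd27 were lower in D8, and Fas was higher. A probe was called at a Benjamini-Hochberg adjusted p under 0.05, from limma fitted to all 17829 detected probes. By this rule 8 of 19 receptor probes, from 5 genes, were called, or 42.1%, against 32.2% of all tested probes. Lower in D8 were 6 (31.6%, against 16.8% of all probes), and higher were 2 (10.5%, against 15.4%). The median difference was -0.17 over the receptor probes and 0 over all probes. With arrays centred on their medians in place of quantile normalization, all called probes split into 1548 higher and 2834 lower, against 2746 and 2994. The receptor probes called were then 7 of 19, and the one lost was Cd27.

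Tnfrsf9 encodes CD137, a receptor that appears on T cells after activation and supports their survival. The brighter of its 2 detected probes had 7.26, 7.33 and 7.54 in D3, 6.83, 7.13 and 7.22 in D4, 6.33, 6.27 and 6.45 in D6, and 6.16, 6.20 and 5.87 in D8. The dimmer probe had 6.80, 7.29 and 7.17 in D3, 6.73, 7.14 and 6.95 in D4, 6.04, 5.84 and 5.92 in D6, and 5.53, 5.81 and 5.97 in D8. All D6 and D8 values lay below all D3 and D4 values on both probes. For D8 against D3, groups did not overlap in 44.3% of all tested probes. The difference of D8 minus D3 was -1.30 ± 0.13 on the brighter probe (SE, adjusted p 5.14e-06), a 2.47-fold lower intensity, and -1.32 ± 0.15 on the dimmer (adjusted p 1.64e-05). Both calls held under every alternative that tested them. D4 lay below D3 without overlap on the brighter probe, as 11.5% of all probes parted, and overlapped with D3 on the dimmer. D4 minus D3 was -0.32 ± 0.13 on the brighter probe and was not called (adjusted p 0.704).

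Tnfrsf18 encodes GITR, a costimulatory receptor that activated and regulatory T cells carry. Its brighter probe had 9.74, 10.04 and 10.08 in D3, 9.65, 9.98 and 10.01 in D4, 9.16, 9.50 and 9.13 in D6, and 8.62, 8.81 and 8.89 in D8. Its dimmer probe had 9.06, 9.44 and 9.52 in D3, 9.13, 9.34 and 9.62 in D4, 8.41, 9.01 and 8.80 in D6, and 8.31, 8.19 and 8.50 in D8. On the brighter probe every D8 value was below every D6 value, and every D6 value below those of D4 and D3. On the dimmer probe D6 and D8 overlapped. D8 minus D3 was -1.18 ± 0.15 (adjusted p 2.42e-05) and -1.0 ± 0.17 (adjusted p 0.000492), and both calls held under every alternative that tested them.

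Several regulatory T cell markers were lower in D8 as well. Of 7 tested markers of a list of 9, 0 were higher and 4 lower in D8 than in D3, where 15.4% of all probes were higher and 16.8% lower. Itgae, Nrp1 and Il2ra gave 0.32, 0.13 and -0.14 and were not called. Foxp3, the factor that defines regulatory T cells, had 8.88, 8.82 and 8.93 in D8, against 9.48, 9.66 and 9.71 in D3, on its brightest probe. That probe differed by -0.74 ± 0.11 (adjusted p 0.000106), while its 2 other detected probes gave -0.10 and -0.25 and were not called. Ikzf2, a factor of regulatory T cells, differed by -0.62 ± 0.15 (adjusted p 0.00674), the inhibitory receptor Ctla4 by -0.59 ± 0.19 (adjusted p 0.0269), and the receptor Gpr83 by -2.11 ± 0.39 (adjusted p 0.000727) on its brighter probe and by -0.51 (adjusted p 0.0313) on its other probe. The summed intensity of the 7 markers spanned 3160 to 4750 in D3 and 2960 to 4120 in D4. In D6 it spanned 2500 to 3030 and in D8 1400 to 2260. The sum adds linear intensities, so markers with high intensity weigh most. Gpr83 had the highest mean of the 7 in D3, at 11.05, and averaged 8.93 in D8. These sums therefore do not show a joint fall of the 7. Between D6 and D4, 0 of the 7 markers were called by limma, against 2.98% of all probes, and 1 had an unadjusted p under 0.05. All 7 had a lower mean in D6 than in D4, with a median difference of -0.2. Gpr83 was called lower in D6 than in D4 in the fit with the experiment as a block (-0.69, adjusted p 0.0154), and Nrp1 lower in D8 than in D4 (-0.58, adjusted p 0.00124). Fewer cells of a type and less RNA per cell cannot be told apart in bulk RNA, and the markers' part in the receptor differences was not tested.

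**Figure D2:**
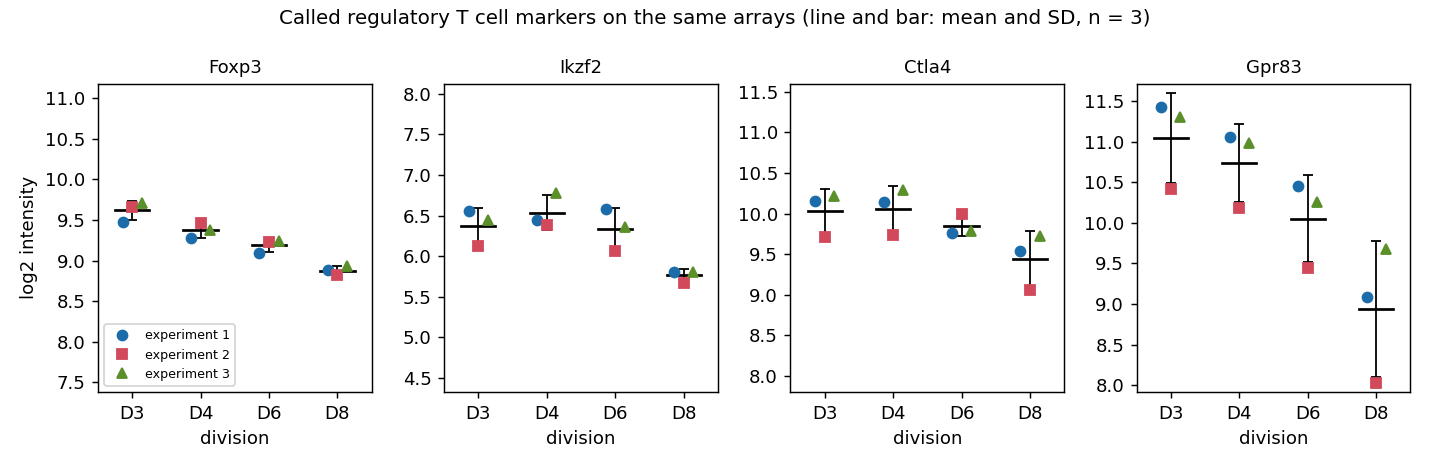
Log2 intensity of the brightest probe of the 4 regulatory T cell markers called in D8 against D3 (vertical axes) in D3, D4, D6 and D8. Points are the 3 experiments, and line and bar are mean and SD (n = 3). Each marker has its lowest mean in D8, and Gpr83 is lowest in experiment 2 in every division.

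Tnfrsf4 encodes OX40, which prolongs the survival of activated CD4 T cells. Its single probe had 8.56, 8.76 and 8.78 in D3, 8.71, 9.22 and 8.64 in D4, 8.79, 8.92 and 8.74 in D6, and 8.19, 8.22 and 8.36 in D8. The 3 D8 values were the lowest of all 12, and the other 3 divisions overlapped. D8 minus D3 was -0.44 ± 0.14 (adjusted p 0.0288), D8 minus D4 -0.60 ± 0.14 (adjusted p 0.00696) and D8 minus D6 -0.56 ± 0.14 (adjusted p 0.0315). The call against D3 was lost without any whole experiment, with adjusted p between 0.0825 and 0.117, and also without D3 replicate 2 or 3, D8 replicate 1 or 2, or the filter on dim probes (adjusted p 0.0684). The call against D4 was lost without experiment 1 (adjusted p 0.0616) or experiment 2 (adjusted p 0.104). The call against D6 was lost with median centring (adjusted p 0.203), with the authors' values (adjusted p 0.075), without the filter (adjusted p 0.0797), without any D6 array, D8 replicate 1 or 2, or any whole experiment.

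Cd27, a receptor that naive and central memory T cells carry and that binds CD70, had 3 detected probes with unlike patterns. The brightest had 13.29, 13.21 and 13.32 in D3, 13.04, 13.14 and 13.13 in D4, 13.05, 13.16 and 13.19 in D6, and 12.66, 13.02 and 13.07 in D8. D8 lay below D3 without overlap, and it overlapped with D4 and D6. D8 minus D3 was -0.36 ± 0.12 (adjusted p 0.0325). Without D8 replicate 1 the difference was -0.23 (adjusted p 0.171), and without D3 replicate 1 or 3 or any whole experiment the call was also lost. It was lost too in a fit of D8 and D3 alone (adjusted p 0.0724), with median centring (adjusted p 0.324) and with the authors' normalized values (adjusted p 0.0601). The other 2 probes differed by -0.17 ± 0.11 (adjusted p 0.286) and 0.04 ± 0.13 (adjusted p 0.869).

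Fas, the receptor through which Fas ligand starts apoptosis, was the receptor gene called higher in D8. Its brighter probe had 10.49, 10.72 and 10.44 in D3, 10.60, 10.47 and 10.46 in D4, 10.99, 10.68 and 10.80 in D6, and 11.28, 11.15 and 11.10 in D8. Its dimmer probe had 8.48, 8.76 and 8.59 in D3, 8.68, 8.84 and 8.77 in D4, 9.30, 9.23 and 9.28 in D6, and 9.27, 9.45 and 9.47 in D8. On the brighter probe D8 lay above all other divisions, and on the dimmer one D6 and D8 lay above D3 and D4 and overlapped with each other. D8 minus D3 was 0.63 ± 0.12 (adjusted p 0.000962) and 0.78 ± 0.11 (adjusted p 8.09e-05), and both calls held under every alternative that tested them. The 2 other Fas probes on the array were not detected on any array.

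Tnfrsf25 encodes DR3, a receptor for TL1A that has a death domain and costimulates T cells, and its values parted by experiment. The brighter probe had 8.84, 8.50 and 8.87 in D3, 8.22, 8.27 and 8.66 in D4, 8.75, 7.82 and 8.96 in D6, and 9.58, 7.95 and 9.42 in D8. The dimmer probe had 4.82, 4.84 and 4.59 in D3, 4.97, 4.80 and 5.42 in D4, 5.10, 4.63 and 5.26 in D6, and 5.69, 4.56 and 5.80 in D8, and was detected on 9 arrays. In D6 and D8, experiment 2 was the lowest of the 3 on both probes. D8 minus D3 was 0.25 ± 0.35 (adjusted p 0.648) and 0.60 ± 0.27 (adjusted p 0.106) and was not called. Within experiments 1, 2 and 3 the brighter probe differed by 0.74, -0.55 and 0.55, and the dimmer by 0.87, -0.28 and 1.21. Without D8 replicate 2 both probes were called, at 0.76 ± 0.26 (adjusted p 0.0468) and 0.99 ± 0.20 (adjusted p 0.00246). Without that array D8 minus D4 was also called, at 1.12 ± 0.26 (adjusted p 0.00939) and 0.68 ± 0.20 (adjusted p 0.031). With the experiment as a block, the dimmer probe was called in D8 minus D3 (adjusted p 0.0355).

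**Figure D3:**
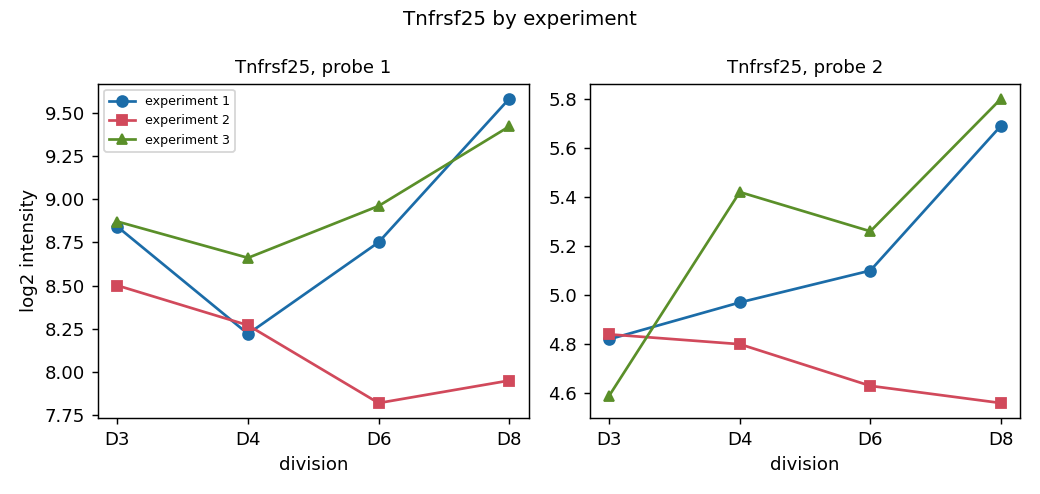
Log2 intensity of the brighter (left) and dimmer (right) detected probe of Tnfrsf25 (vertical axes) in D3, D4, D6 and D8, with 1 line for each experiment. In D8, experiments 1 and 3 lie above their own D4 values and experiment 2, at 7.95 and 4.56, below them.

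The receptors for TNF itself were dim. Tnfrsf1a, the widely expressed TNF receptor with a death domain, had 3 detected probes, whose means spanned 5.15 to 5.69 over the divisions. Its brightest probe had 5.15, 5.43 and 5.23 in D8, against 5.51, 5.86 and 5.62 in D3. These groups did not overlap, and the difference of -0.39 ± 0.16 was not called (adjusted p 0.0808). The other Tnfrsf1a probes differed by -0.31 ± 0.13 (adjusted p 0.0818) and -0.08 ± 0.15 (adjusted p 0.738). Tnfrsf1b, the TNF receptor without a death domain that activated T cells carry, had 5.83, 5.78 and 5.06 in D8, against 5.73, 6.45 and 6.04 in D3, on its brighter probe, and the groups overlapped. The difference was -0.51 ± 0.22 (adjusted p 0.0921), and it was called with the experiment as a block (adjusted p 0.036). The dimmer Tnfrsf1b probe was detected on 6 arrays and on 0 of the 3 D8 arrays, and its difference was -0.13 ± 0.14 (adjusted p 0.514). Tnfrsf10b, through which TRAIL can start apoptosis, had 6.50, 6.85 and 6.80 in D8, against 6.34, 6.52 and 6.72 in D3, on its brighter probe. The groups overlapped, and the difference was 0.19 ± 0.19 (adjusted p 0.481). The dimmer Tnfrsf10b probe was detected on 4 arrays, and its difference was -0.03 ± 0.14 (adjusted p 0.899).

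D8 was next set against D4, the division of high memory potential. The pattern was that of D8 against D3 without Cd27, and both comparisons share the D8 arrays. Called were 7 of 19 receptor probes, or 36.8%, against 24% of all tested probes. Lower in D8 were 5 (26.3%, against 12.4% of all) and higher were 2 (10.5%, against 11.6% of all). Tnfrsf9 differed by -0.98 ± 0.13 (adjusted p 0.000105) and -1.17 ± 0.15 (adjusted p 7.6e-05). Tnfrsf18 differed by -1.10 ± 0.15 (adjusted p 7.33e-05) and -1.02 ± 0.17 (adjusted p 0.000618). Fas was higher by 0.67 ± 0.12 (adjusted p 0.000826) and 0.63 ± 0.11 (adjusted p 0.000729). On all of these probes the D8 and D4 values did not overlap, which held for 37.3% of all probes. The brightest Cd27 probe differed by -0.19 (adjusted p 0.287).

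**Figure D4:**
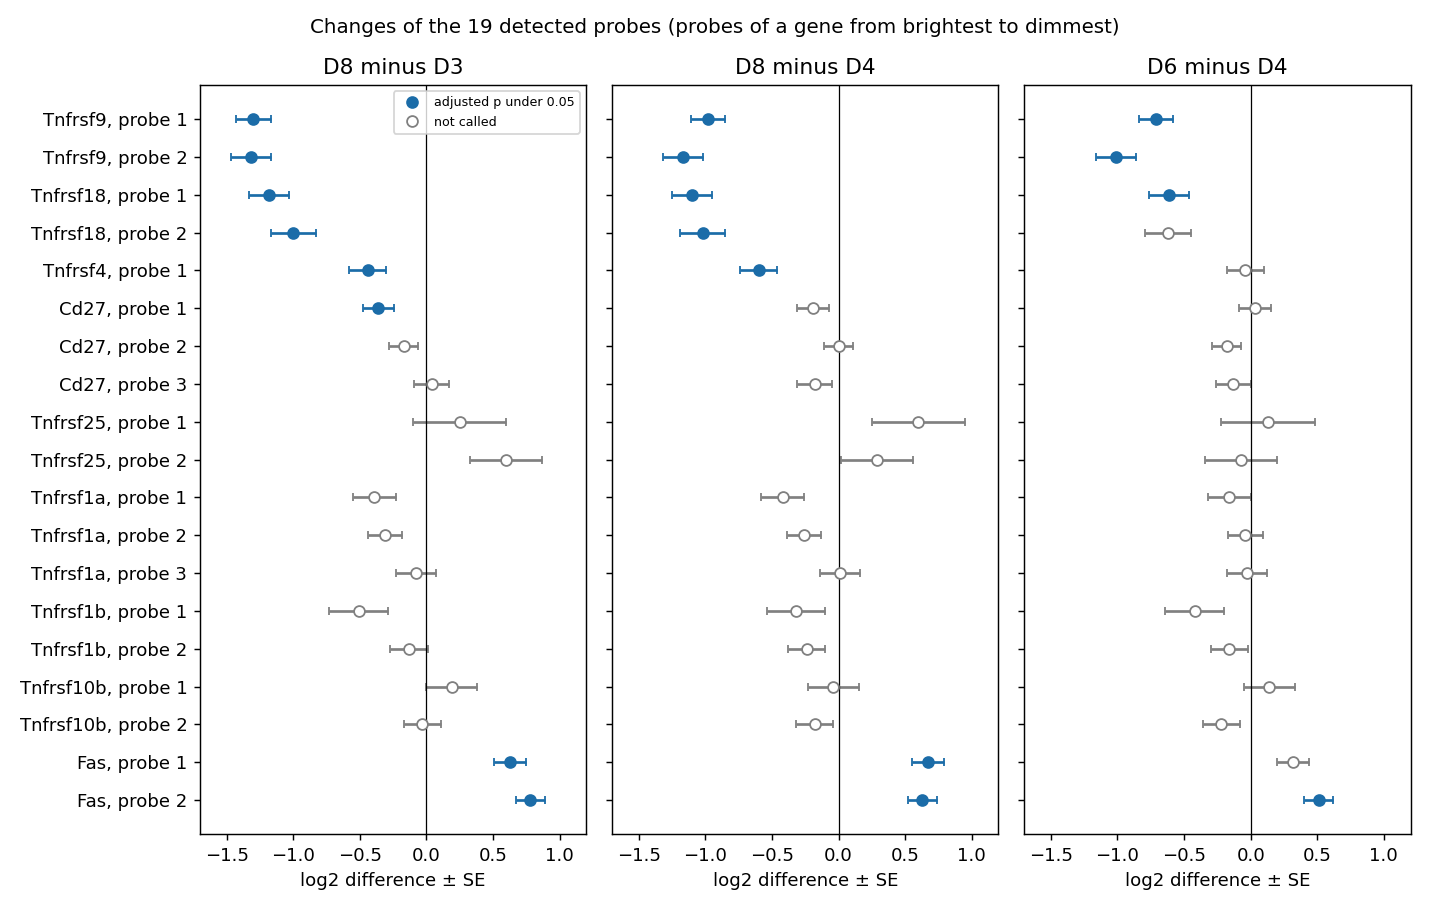
Log2 differences ± SE (horizontal axes) of the 19 detected probes in D8 minus D3, D8 minus D4 and D6 minus D4, with filled points for an adjusted p under 0.05. Tnfrsf9 and Tnfrsf18 lie left of 0 and Fas right of 0 in all 3 panels, and the wide bars of Tnfrsf25 reflect its spread between experiments.

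D6 differed from D4 in 3 of the receptor genes. Called were 4 of 19 probes, or 21.1%, against 2.98% of all tested probes: 3 lower (15.8%, against 1.3% of all) and 1 higher (5.26%, against 1.68% of all). Both Tnfrsf9 probes were lower, at -0.71 ± 0.13 (adjusted p 0.00967) and -1.01 ± 0.15 (adjusted p 0.00225). The brighter Tnfrsf18 probe was lower, at -0.61 ± 0.15 (adjusted p 0.0338). That call was kept in 13 of 23 alternatives, and lost with the authors' values (adjusted p 0.0981), without the filter on dim probes (adjusted p 0.0978), in a fit of D6 and D4 alone (adjusted p 0.0639), without D4 replicate 2 or 3, D6 replicate 1 or 3, or any whole experiment. The dimmer Tnfrsf18 probe gave -0.62 ± 0.17 (adjusted p 0.0739), and with the experiment as a block it was called (adjusted p 0.00988). The dimmer Fas probe was higher by 0.51 ± 0.11 (adjusted p 0.0216), whereas the brighter gave 0.32 ± 0.12 (adjusted p 0.193). Values did not overlap on any Tnfrsf9, Tnfrsf18 or Fas probe, which held for 20.2% of all probes. The Fas call was kept in 13 of 22 alternatives, and lost with median centring (adjusted p 0.303), without any D6 array, without D4 replicate 1 or 3, and without any whole experiment. Without any whole experiment, 0 or 1 receptor probe was called.

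Against D3, D6 showed the same 3 genes called, and it shares the D6 arrays with the comparison above. Called were 5 of 19 probes, or 26.3%, against 12.1% of all tested probes: 4 lower (21.1%, against 6.02% of all) and 1 higher (5.26%, against 6.11% of all). Tnfrsf9 differed by -1.03 ± 0.13 (adjusted p 0.00021) and -1.15 ± 0.15 (adjusted p 0.000245), calls that held under every alternative that tested them. Tnfrsf18 differed by -0.69 ± 0.15 (adjusted p 0.00647) and -0.60 ± 0.17 (adjusted p 0.037), and the dimmer Fas probe by 0.66 ± 0.11 (adjusted p 0.00136). The dimmer Tnfrsf18 probe was not called with the authors' values (adjusted p 0.0907), without the filter on dim probes (adjusted p 0.123), without D3 replicate 2 or 3, without D6 replicate 1 or 3, or without any whole experiment. The brighter was not called without experiment 3 (adjusted p 0.09). Values did not overlap on these 5 probes, which held for 30.5% of all probes. Median centring, which moved the median of all probes to -0.12 in this comparison, ended that Fas call (0.47, adjusted p 0.0915). With the experiment as a block 8 probes were called, where 19.9% of all probes were. The 3 added were the brighter Tnfrsf1b probe (-0.61, adjusted p 0.029), the second Cd27 probe (-0.35, adjusted p 0.0357) and the brighter Tnfrsf10b probe (0.38, adjusted p 0.0361).

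The first and last steps of the series were those between neighbouring groups. Between D4 and D3, 0 of 19 receptor probes were called by limma, against 0% of all tested probes, and 1 had an unadjusted p under 0.05. Between D8 and D6, 1 receptor probe was called (5.26%, against 6.77% of all), that of Tnfrsf4, lower in D8 without overlap. Of all probes 3.4% were called lower and 3.37% higher, and 24.9% did not overlap. Higher in D8 were 0 receptor probes. With the experiment as a block 3 were called, where 13.3% of all probes were. The others were the brighter Tnfrsf18 probe (-0.49, adjusted p 0.00933) and the brighter Fas probe (0.35, adjusted p 0.0469).

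D4 was also set against the mean of D3, D6 and D8. Called were 4 of 19 receptor probes (21.1%, against 3.94% of all), all higher in D4. Of all probes 1.87% were called higher and 2.08% lower. Tnfrsf9 was higher by 0.46 ± 0.11 (adjusted p 0.0307) and 0.68 ± 0.13 (adjusted p 0.0075), and Tnfrsf18 by 0.55 ± 0.12 (adjusted p 0.0181) and 0.56 ± 0.14 (adjusted p 0.0427). The D3 means were not below those of D4: Tnfrsf9 averaged 7.06 in D4 and 7.38 in D3, and Tnfrsf18 9.88 in D4 and 9.96 in D3, on their brighter probes. Without D4 replicate 2, 0 of the 4 calls remained. With the authors' normalized values 1 probe was called, and with median centring 2. With the experiment as a block 6 were called, where 9.16% of all probes were. The others were both Fas probes, lower in D4 (adjusted p 0.0278 and 0.0207).

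A linear trend over the number of times divided called 10 of 19 receptor probes from 7 genes (52.6%, against 35.6% of all). Falling were 8 (42.1%, against 18.4% of all) and rising were 2 (10.5%, against 17.2% of all). Per time divided, Tnfrsf9 changed by -0.27 and -0.29, Tnfrsf18 by -0.25 and -0.22, and Fas by 0.13 and 0.17. The other 4 were single probes with smaller slopes: Tnfrsf4 at -0.09 (adjusted p 0.0405), Cd27 at -0.06 (adjusted p 0.0445), Tnfrsf1a at -0.08 (adjusted p 0.0359) and Tnfrsf1b at -0.11 (adjusted p 0.047). These 4 calls were kept in 11, 8, 12 and 10 of 22 alternatives, in the same order, and single arrays ended each of them. Those of Tnfrsf4, Cd27 and Tnfrsf1b were also lost with the authors' values. The 4 means of a probe fell at every step for 4 of the 19 probes (21.1%, against 17.6% of all) and rose at every step for 1 (5.26%, against 15.7% of all).

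Among 12 tested ligands of the superfamily, of 17 listed, 5 were lower (41.7%) and 2 higher (16.7%) in D8 than in D3, against 16.8% and 15.4% of all probes, with a median difference of 0.07. A block for the experiment, which called 40% of all probes in either direction, brought the higher ones to 3, with Cd40lg at 0.39 (adjusted p 0.0295). Here and in the other lists, genes called with the block alone are named because it changed their call. Tnfsf4, the ligand of OX40, had 4.41, 4.36 and 5.20 in D8, against 6.36, 6.85 and 6.56 in D3, and 1 of the 3 D8 arrays detected it. Its D8 mean of 4.66 lay below the lowest detected signals of those arrays, 4.72 to 4.78, so the difference of -1.93 ± 0.25 (adjusted p 3.24e-05) is set against background and its size is uncertain. Lta, lymphotoxin alpha, had 7.09, 6.87 and 6.92 in D8, against 8.49, 8.44 and 8.17 in D3, a difference of -1.41 ± 0.16 (adjusted p 1.27e-05). In neither gene did the groups overlap. Tnfsf8, the CD30 ligand, differed by -0.76 ± 0.18 (adjusted p 0.0044), and Fasl, the ligand of Fas, by -0.72 ± 0.22 (adjusted p 0.0209). Fasl had 5.52, 5.67 and 5.91 in D8, against 6.18, 6.48 and 6.59 in D3, so that ligand and receptor differed in opposite directions in this contrast. Fasl averaged 6.59 in D4 and 6.73 in D6, so it did not fall over the earlier divisions. Tnfsf13b, the B cell survival factor BAFF, was higher by 0.86 ± 0.21 (adjusted p 0.00638), and Tnfsf11, RANK ligand, by 0.49 ± 0.16 (adjusted p 0.0331). With median centring 1 ligand was called higher. The brightest Tnfsf14 probe gave 0.17 and was not called, while its others gave -0.48 (adjusted p 0.0435) and 0.08 (adjusted p 0.786). Cd70 and Tnfsf18, the ligands of CD27 and GITR, were not detected on any array.

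Against D4, 5 of 12 tested ligands were lower in D8 (41.7%) and 0 higher, against 12.4% and 11.6% of all probes. With median centring 3 were lower, where 15% of all probes were called in either direction. Between D6 and D4, 2 ligands were called, both lower in D6 (16.7%, against 1.3% of all probes). They were Lta at -0.77 ± 0.16 (adjusted p 0.0182) and Tnfsf4 at -1.04 ± 0.25 (adjusted p 0.0332). Both had higher levels in D4 than the mean of the other divisions. Lta was higher by 0.67 ± 0.13 (adjusted p 0.0105) and Tnfsf4 by 1.02 ± 0.20 (adjusted p 0.0103). This was not particular to D4, as the D3 means were close to it. Lta averaged 8.28 in D4 and 8.37 in D3, and Tnfsf4 6.63 in D4 and 6.59 in D3. The lower means were those of D6 (Lta 7.51, Tnfsf4 5.59) and D8 (Lta 6.96, Tnfsf4 4.66). The D8 mean of Tnfsf4 is at background. Tnfsf13b was called higher in D6 than in D4 once the experiment was a block (0.68, adjusted p 0.019).

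Of 10 tested genes among 19 other receptors of the superfamily, 1 was higher (10%) and 2 were lower (20%) in D8 than in D3, against 15.4% and 16.8% of all probes, with a median of 0.08. Tnfrsf19, the receptor TROY, had 6.12, 6.24 and 6.19 in D8, against 8.09, 8.42 and 8.09 in D3. The groups did not overlap, the difference was -2.02 ± 0.12 (adjusted p 4.41e-08), and a second probe gave -1.18 (adjusted p 0.000244). Tnfrsf14, the receptor HVEM, differed by -0.51 ± 0.14 (adjusted p 0.0102). The brightest Cd40 probe gave 0.22 and was not called, while its others gave -0.34 (adjusted p 0.0313) and 0.10 (adjusted p 0.643). Tnfrsf26 was higher by 0.50 ± 0.15 (adjusted p 0.0204), a call that median centring ended. Tnfrsf22 was also called higher in the blocked fit (0.36, adjusted p 0.0487), and there Tnfrsf26 was called higher in D6 than in D4 (0.55, adjusted p 0.0297).

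The signalling genes behind the receptors were lower more often than higher. Of 19 tested adaptors and death-signal regulators, 8 were lower and 3 higher in D8 than in D3 (42.1% and 15.8%, against 16.8% and 15.4% of all probes), with a median of -0.28. Tank, a TRAF-binding regulator, had 9.18, 9.41 and 9.28 in D8, against 10.29, 10.24 and 10.24 in D3, and differed by -0.97 ± 0.11 (adjusted p 9.78e-06). Tnip1, a partner of the NF-kB inhibitor A20, differed by -0.88 ± 0.12 (adjusted p 5.05e-05), and Birc2, the ubiquitin ligase cIAP, by -0.87 ± 0.12 (adjusted p 6.89e-05). Tnfaip3, which encodes A20, differed by -0.76 ± 0.15 (adjusted p 0.00163). Fadd, the adaptor of Fas, was higher by 0.45 ± 0.12 (adjusted p 0.00778) on its brightest probe, while its 3 other probes gave 0.06, -0.19 and 0.35. Traf5 and Tradd were each higher by 0.41 (adjusted p 0.00739 and 0.0391) on their brightest probes. Another probe of each was not called, at 0.29 for Traf5 (adjusted p 0.195) and 0.10 for Tradd (adjusted p 0.688). With median centring 7 were lower and 0 higher, where 24.6% of all probes were called in either direction. The blocked fit, which called 40% of all probes, called 9 lower and 4 higher, adding Traf1 (-0.34, adjusted p 0.0398) and Siva1 (0.34, adjusted p 0.0104). Another Traf1 probe was called lower without the block, at -0.85 (adjusted p 0.0009). Against D4, 8 were lower (42.1%) and 0 higher in D8, against 12.4% and 11.6% of all probes. With median centring 2 were lower, where 15% of all probes were called in either direction. In the blocked fit Fadd was called higher against D4 (0.30, adjusted p 0.0452). Between D6 and D4, 0 of the 19 were called by limma, against 2.98% of all probes, and 6 had an unadjusted p under 0.05. The blocked fit called Birc2 (-0.36, adjusted p 0.0364) and Tank (-0.36, adjusted p 0.0484) lower in D6.

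**Figure D5:**
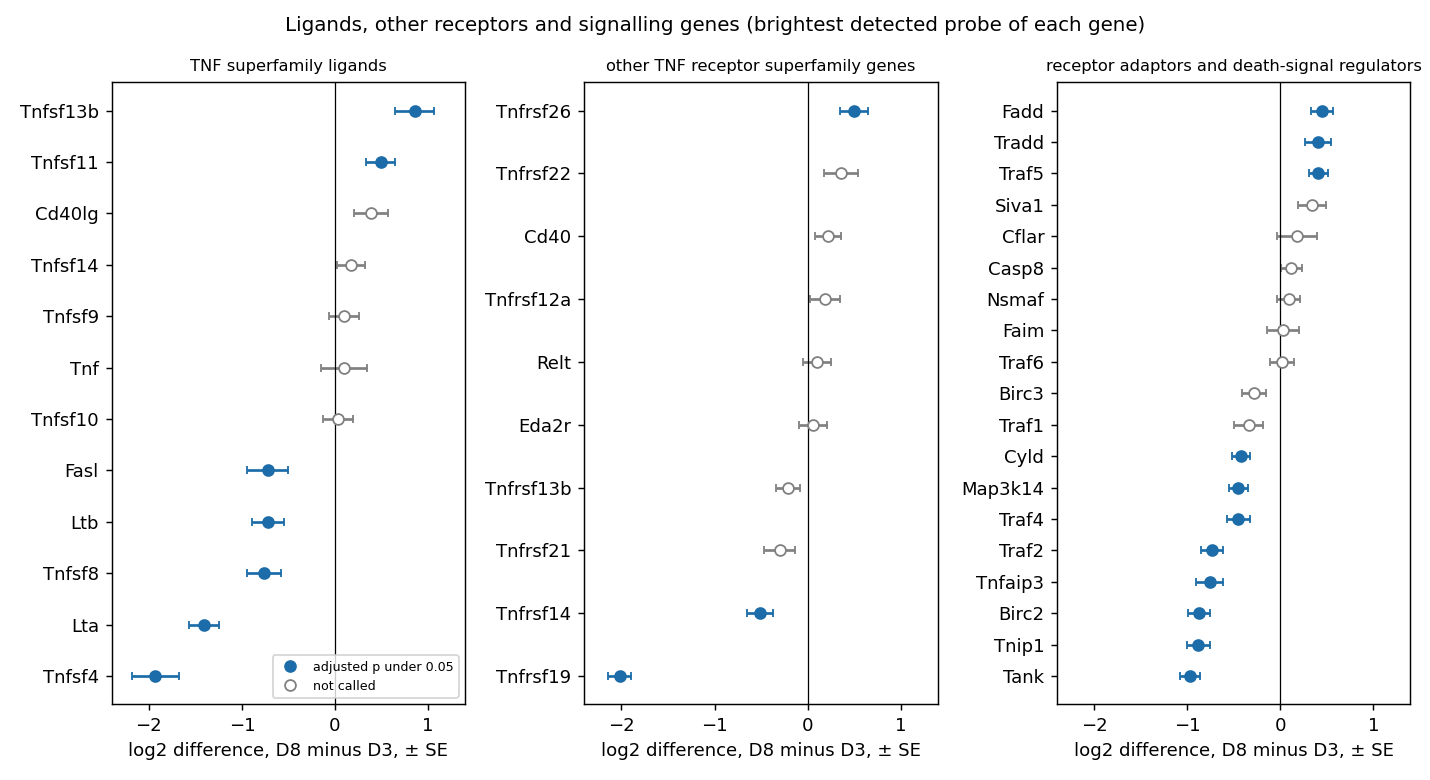
Log2 differences ± SE of D8 minus D3 (horizontal axes) for the tested ligands (left), other receptors (middle) and adaptors and death-signal regulators (right), brightest detected probe of each gene. Filled points have an adjusted p under 0.05. Tnfrsf19 at -2.02 and Tnfsf4 lie far to the left, and the Tnfsf4 value is set against background in D8.

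For each receptor gene, the genes most like it were taken by Pearson correlation of the brightest probes over the 12 arrays, among 9557 genes. The arrays share divisions and experiments, so these values are descriptions. Tnfrsf9 was most like Cyp2d22 (0.973), Fibcd1 (0.965) and Siah1a (0.963), and Tnfrsf18 most like Numb (0.978), Tmie (0.974) and Gprc5b (0.971). Fas was most like Zranb3 (0.981), Mycbp (0.975) and Entpd5 (0.972). Tnfrsf4 was most like Ampd3 (0.960), H2ac18 (0.930) and Pdzk1ip1 (0.928), and Cd27 most like Txlng (0.945), 4833420G17Rik (0.919) and Cand1 (0.910). Tnfrsf10b led with Tbrg1 (0.915), Tnfrsf1a with Jkamp (0.899) and Tnfrsf1b with Tbl1xr1 (0.894). Tnfrsf25 was most like Ccdc117 (0.892), the chemokine receptor gene Ccr6 (0.878) and the class II gene H2-Eb1 (0.857). Like Tnfrsf25, Ccr6 was low in experiment 2 in D8, with 10.25, 8.92 and 10.01 in experiments 1 to 3.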

How the data were processed

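The authors deposited probe intensity values from BeadStudio 2.0, per the submitters' processing notes, without normalization between arrays. A detection p-value, per the file headers, stands beside each deposited intensity. A second deposited table holds background-subtracted intensities of nearly equal distribution on all arrays. Its method is not given in the sources used here, nor is a genome build. Its array medians lay between 2.74 and 2.76, and it was an alternative here, as log2 after a floor of 1.

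Of 45281 probes, 34885 carried 1 gene symbol, 18 several and 10378 none. Probes were kept where 3 or more of the 12 arrays had a detection p under 0.05 (17829 probes, 14972 with 1 symbol). Background correction and quantile normalization on the log2 scale used neqc (limma 3.58.1, R 4.3.3) with an offset of 16 and the 936 negative controls per array that the detection p implied. The 4 division means were fitted to all 12 arrays with lmFit and eBayes, and p-values were adjusted by Benjamini-Hochberg over all kept probes in each of 8 comparisons. Scripts were tested on simulated data.

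The text names all 9 receptor genes with every detected probe, up to 4 called genes per list and direction with the largest difference in D8 minus D3, and 3 like genes per receptor. Lists use the brightest probe of a gene. Members and lists were chosen with earlier results of these data known. Experiment numbers pair the arrays, since the design text states independent experiments: the residuals of arrays from the same experiment correlated at 0.156 to 0.403 in 18 pairs. The experiment was not a term of the model, and fits with it as a block are given where they changed the call of a receptor probe or of a list gene in the D8 minus D3, D8 minus D4 or D6 minus D4 comparison. With 3 arrays per division, their number limits the precision. Alternatives changed background correction, normalization, the filter on dim probes, the probes per gene, the arrays in the fit, and the arrays left out.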

Additional observations from a re-analysis of the deposited data

How the results depend on the processing

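Both probes of Tnfrsf9, Tnfrsf18 and Fas were called in the same direction in D8 minus D3, D8 minus D4 and the trend under every alternative that tested them. Over all receptor probes, comparisons and alternatives, 3163 values kept their side of the threshold, 144 lost it, 47 gained it, and 0 called values changed sign. With 1 probe a gene, 9 receptor probes were tested. Counts were 5 for D8 minus D3 (8 with all probes), 4 for D8 minus D4 (7), 2 for D6 minus D3 (5) and 2 for D6 minus D4 (4). In the D6 comparisons the Fas call had come from the dimmer probe, which this setting left out. The same setting gave 2 for D8 minus D6 (1). For D8 minus D6 the count was also 0 with median centring, with the authors' values and without a filter on dim probes, 3 without background correction, and 2 with probes detected on all 12 arrays. For D4 minus the mean of the others (4) it was 2 with median centring, 1 with the authors' values and 2 without the filter, and for the trend (10) 6 without the filter. The cause was not tested.

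Leaving out 1 array, or all 4 arrays of 1 experiment (chosen after the Tnfrsf25 values were seen), gave 6 to 9 called probes in D8 minus D3, 6 to 9 in D8 minus D4, 0 to 2 in D8 minus D6, 3 to 6 in D6 minus D3, 0 to 4 in D6 minus D4, 0 in D4 minus D3, 0 to 4 in D4 minus the mean, and 6 to 10 in the trend.

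With the experiment as a replicate block, paired counts are given beside the share of all probes called. They were 10 for D8 minus D3 (40%), 7 for D8 minus D4 (31.7%) and 3 for D8 minus D6 (13.3%). D6 minus D3 had 8 (19.9%), D6 minus D4 5 (7.41%), D4 minus the mean 6 (9.16%) and the trend 10 (40.8%). The block ended no call of a receptor probe. Over all probes the block called 48 in D4 minus D3, where the fit without it called 0 (1188 at an unadjusted p under 0.05), and moved D8 minus D6 to 2367 probes (1207), D6 minus D3 to 3551 (2162), D6 minus D4 to 1322 (531) and D4 minus the mean to 1633 (703). Median centring turned the split of all called probes in D6 minus D3 to 369 higher and 1252 lower (1089 and 1073), in D6 minus D4 to 86 and 119 (300 and 231), and in the trend to 1782 and 3159 (3070 and 3286). The authors' values split D8 minus D6 into 201 and 397 (601 and 606). Dim probes near background, such as those of Tnfrsf1a and Tnfrsf1b, limit what 3 arrays can show.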

Other observations

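Tnfsf13b, which encodes BAFF, did not follow the order of division. It had 4.99, 5.67 and 5.32 in D3, 6.38, 6.47 and 5.85 in D4, 6.92, 7.28 and 6.52 in D6, and 6.00, 6.35 and 6.22 in D8. Every D6 value lay above every value of the other divisions, and D6 minus D3 was 1.58 ± 0.21 (SE, adjusted p 0.00026 by limma). D8 minus D6 was -0.72 ± 0.21 and was not called (adjusted p 0.0583).

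A marker each of NK and B cells was higher in D8 than in D3. Klrd1, the 1 detected gene of 4 NK cell markers and a receptor of NK cells and of some activated T cells, had 6.54, 7.39 and 6.94 in D8, against 5.26, 5.71 and 5.78 in D3, a difference of 1.37 ± 0.25 (adjusted p 0.000768). Cd22, a surface lectin of B cells and 1 of 3 tested B cell markers, was not detected in D3 and was at least 3.01-fold higher in D8 (adjusted p 0.000643), with 6.29, 6.97 and 5.61, and the other tested B cell markers were not called. Ncr1, Klrb1c, Klre1, Pax5, Blnk and Cr2 were not detected on any array.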
